A study of Mus musculus with 6 samples.

Results

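The 10 catalytically active dual-specificity MAP kinase phosphatase genes Dusp1, Dusp2, Dusp4, Dusp5, Dusp6, Dusp7, Dusp8, Dusp9, Dusp10 and Dusp16 were taken by symbol from the 56792 gene rows of the deposited count table, and each symbol matched 1 row. C2C12 is an established line of mouse myoblasts, labelled WT, that fuse into myotubes when serum is lowered. The lenvatinib group held 3 libraries from cells kept in DMEM with 2% horse serum and 1 µM lenvatinib, and the untreated group 3 libraries from cells kept in the same medium without the drug; per the series title, all were taken after 4 days of differentiation. Lenvatinib is an oral inhibitor of the VEGF and FGF receptor tyrosine kinases and of PDGF receptor alpha, KIT and RET. Whether the replicates came from separate cultures is not on the labels; the p-values therefore reflect library-to-library spread alone, which could be technical. The labels give neither the time at which the drug was added nor the solvent of the untreated cells.

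MAP kinases (ERK, JNK and p38) are switched on by phosphorylation of a threonine and a tyrosine in their activation loop, and dual-specificity phosphatases remove both phosphates. Several of these phosphatase genes are transcribed in response to the kinases their products switch off, which makes them negative feedback genes. They differ in substrate. Dusp5, Dusp6, Dusp7 and Dusp9 act chiefly on ERK, Dusp5 in the nucleus and the other three mainly in the cytoplasm. Dusp1, Dusp2 and Dusp4 are nuclear enzymes with ERK, JNK and p38 among their substrates, and Dusp8, Dusp10 and Dusp16 act on JNK and p38 rather than ERK. In muscle precursors, ERK activity is linked to proliferation and p38 activity to the differentiation program.

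With lenvatinib, Dusp4, Dusp5 and Dusp9 transcripts fell and Dusp1, Dusp8 and Dusp16 transcripts rose, while Dusp2, Dusp6, Dusp7 and Dusp10 did not pass the test. By substrate, 2 of 4 ERK phosphatase genes fell and none rose, 2 of 3 JNK and p38 phosphatase genes rose and none fell, and of the 3 genes with broad substrates 1 rose and 1 fell. DESeq2 and limma-voom also called 0 ERK phosphatase genes higher and 0 JNK and p38 phosphatase genes lower, and the unadjusted edgeR p was under 0.05 for 0 of them in those directions. The test was the quasi-likelihood test of edgeR over all 14989 rows with enough counts, with Benjamini-Hochberg adjusted p-values called under 0.05. It called 28.2% of all tested rows, 13.3% higher and 14.9% lower, against 6 of the 10 phosphatase genes. At such shares, 0 calls in a direction are common among any 3 or 4 genes. The tools also used the same counts, so the classes with 0 calls do not set the substrate groups apart. The median log2 fold change of the 10 was -0.04, beside 0.003 over all tested rows. All 10 passed the filter on low counts, with 26 to 1803 counts per library. Values are given as CPM, the count relative to the TMM-scaled library total, as mean ± SD over 3 libraries, and differences as log2 fold changes, lenvatinib over untreated, with the SE of the fit. In cultures sequenced in bulk, fewer cells of a type and less RNA per cell cannot be told apart.

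**Figure D1:**
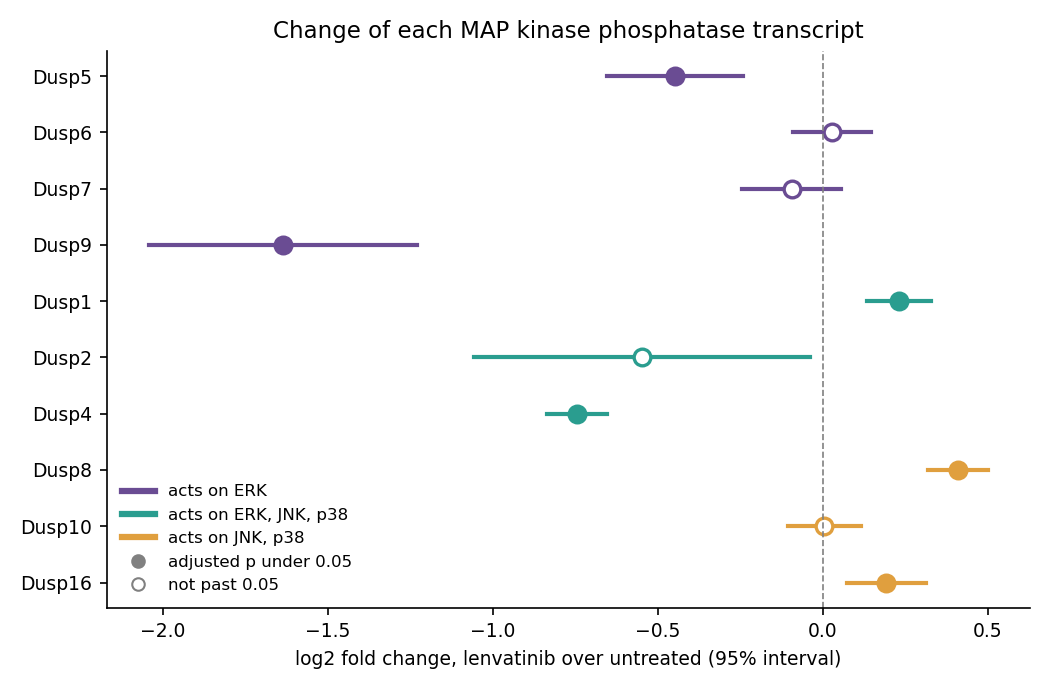
Log2 fold change of each phosphatase transcript (x axis, lenvatinib over untreated) with its 95% interval, coloured by substrate; filled points have an adjusted p under 0.05. The intervals of Dusp4, Dusp5 and Dusp9 lie below 0 and those of Dusp1, Dusp8 and Dusp16 above 0. The interval of Dusp9, the rarest of these 6, is the widest among them. That of Dusp2, from -1.06 to -0.04, also lies below 0, but Dusp2 did not pass in edgeR (adjusted p = 0.105). Unlike the calls, the intervals are not adjusted for the number of rows tested.

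RefSeq start sites (build GRCm38.p6) were on record here for 8 of the 10 genes, Dusp4 and Dusp9 being the others. The 250 bases upstream of the start are printed for the 3 genes that rose, for Dusp5, which fell, and for Dusp6, which did not pass, because they let the letters be compared between genes that moved differently. They run 5′ to 3′ on the gene's strand in lower case. Capitals mark matches to the cyclic AMP response element (CRE) core TGACG or its reverse complement, the full palindrome TGACGTCA being 1 core on each strand, and to the CArG box, the binding motif of serum response factor.
Dusp1, chr17:26508473-26508722, minus strand: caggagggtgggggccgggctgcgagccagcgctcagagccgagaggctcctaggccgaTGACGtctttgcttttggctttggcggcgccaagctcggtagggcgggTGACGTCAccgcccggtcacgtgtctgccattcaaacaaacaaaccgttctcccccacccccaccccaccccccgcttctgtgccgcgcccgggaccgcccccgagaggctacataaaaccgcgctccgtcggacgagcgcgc
Dusp8, chr7:142095285-142095534, minus strand: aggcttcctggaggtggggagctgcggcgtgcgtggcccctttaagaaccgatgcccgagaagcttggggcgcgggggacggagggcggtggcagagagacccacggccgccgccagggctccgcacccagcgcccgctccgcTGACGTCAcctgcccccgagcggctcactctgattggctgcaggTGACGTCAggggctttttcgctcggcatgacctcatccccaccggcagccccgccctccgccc
Dusp16, chr6:134792629-134792878, minus strand: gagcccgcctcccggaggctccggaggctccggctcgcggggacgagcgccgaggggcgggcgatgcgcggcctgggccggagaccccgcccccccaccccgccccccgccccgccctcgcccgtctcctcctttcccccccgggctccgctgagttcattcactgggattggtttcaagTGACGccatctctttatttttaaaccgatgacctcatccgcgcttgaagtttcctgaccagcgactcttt
Dusp5, chr19:53528895-53529144, plus strand: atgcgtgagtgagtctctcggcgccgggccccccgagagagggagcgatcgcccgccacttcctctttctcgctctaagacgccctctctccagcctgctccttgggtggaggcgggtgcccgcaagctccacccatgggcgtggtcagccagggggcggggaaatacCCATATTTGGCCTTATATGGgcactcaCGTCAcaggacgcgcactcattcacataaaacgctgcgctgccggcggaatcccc
Dusp6, chr10:99262981-99263230, plus strand: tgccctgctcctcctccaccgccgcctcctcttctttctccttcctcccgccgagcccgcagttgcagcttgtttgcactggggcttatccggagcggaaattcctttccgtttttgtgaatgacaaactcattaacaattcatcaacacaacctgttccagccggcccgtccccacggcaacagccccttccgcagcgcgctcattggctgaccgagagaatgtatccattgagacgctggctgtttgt
The window of Dusp1 held 1 full palindrome with its first base 143 bases upstream of the start and a further core at 191. The window of Dusp8 held 2 full palindromes, at 107 and 63 bases, and that of Dusp16 a core at 70. The Dusp5 window held a pair of adjoining CArG boxes, at 82 and 72 bases, and a core at 55. Neither motif occurred in the windows of Dusp2, Dusp6, Dusp7 or Dusp10, the 4 genes that did not pass. Among all 32851 windows of the same length, 17.8% held the core, 1.55% the palindrome and 1.47% a CArG box. Among the 13029 windows of tested symbols the shares were 25.9%, 2.39% and 1.16%. All searches covered both strands. TGANTCA (the AP-1 site), CCGGAA (an ETS site) and CAGCTG (an E-box) were searched too and matched in none of the 8 windows and in 4.78%, 21.1% and 12.4% of those of tested symbols. The motifs were chosen with the changes of these genes known, so the matches describe the sequences and were not tested; a window without a match says nothing of the factor. The GENCODE M21 model of the gene begins upstream of the RefSeq start by 53656 bases for Dusp1, 21079 for Dusp10, 559 for Dusp8 and 36 for Dusp5, so the annotated starts of these genes differ.

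**Figure D2:**
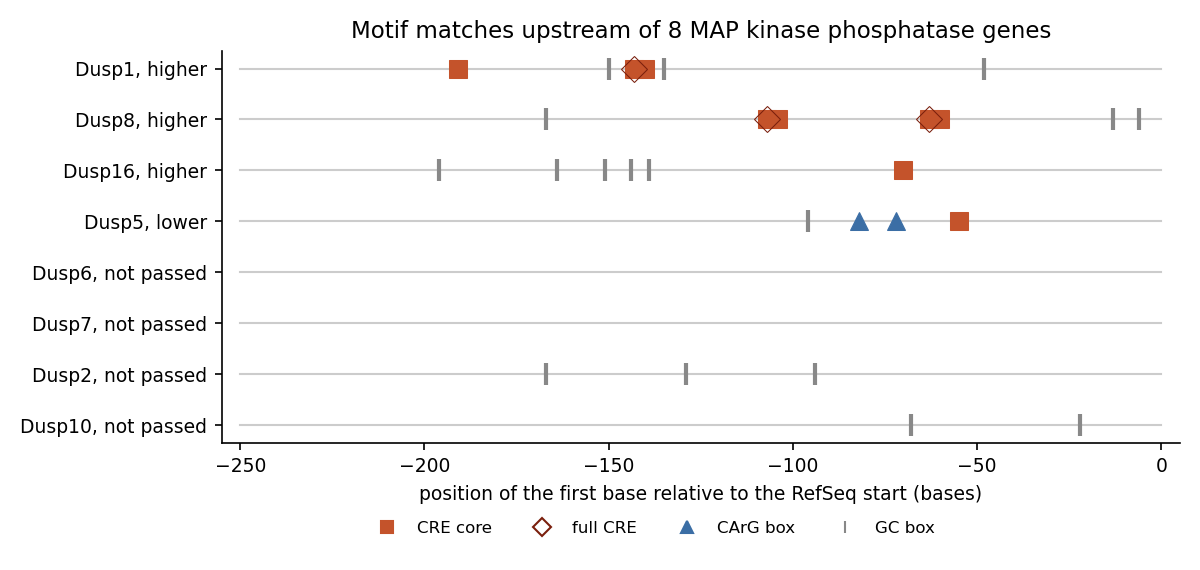
Position of motif matches (x axis, bases relative to the RefSeq start; symbols mark the first base of a match) upstream of 8 phosphatase genes, each labelled with its call with lenvatinib. CRE cores (TGACG), which 25.9% of the windows of tested symbols hold, appear in Dusp1, Dusp8, Dusp16 and Dusp5 and in none of the 4 genes below them. GC boxes (GGGCGG), which 56.2% of the windows of tested symbols hold, appear in 6 of the 8. Dusp4 and Dusp9, which fell, had no window, and the motifs were chosen with the calls known.

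Among the ERK phosphatases, Dusp9 changed the most on the log2 scale. It had 1.05, 1.55 and 1.20 CPM in the lenvatinib libraries, against 4.02, 2.90 and 4.83 CPM in the untreated libraries. Every lenvatinib library lay below every untreated one. These values rest on 26, 38 and 39 counts with lenvatinib and 107, 74 and 139 counts without it. Dusp9, an X-linked cytoplasmic phosphatase known for its role in the placenta, was 3.11-fold lower (-1.64 ± 0.20, adjusted p = 2.39e-08), and 0.814% of the tested rows had a larger absolute change. Leaving out single libraries moved this fall between -1.81 and -1.45. Its row lies on chromosome X from 72683025 to 72687120 in the deposited positions, whose build was not identified.

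Dusp5, the nuclear ERK phosphatase, had 6.14, 6.63 and 6.43 CPM in the lenvatinib libraries, against 8.88, 8.54 and 8.76 CPM in the untreated libraries. The groups did not overlap, and each was tight. Dusp5 was 1.36-fold lower (-0.45 ± 0.10, adjusted p = 0.00066), and its row lies on chromosome 19 from 53517540 to 53530862. Dusp6, the cytoplasmic ERK phosphatase known as a feedback gene of FGF signaling in the mouse embryo, had 31.2, 32.9 and 27.9 CPM with lenvatinib, against 30.8, 28.7 and 30.3 CPM without it. Its untreated libraries lay within the range of the lenvatinib libraries. The log2 fold change of Dusp6 was 0.03 with a 95% interval from -0.09 to 0.15 (adjusted p = 0.77), so a fall of the size of that of Dusp5 lay outside this interval. Dusp7, its close cytoplasmic relative, averaged 14.8 ± 0.755 CPM with lenvatinib and 15.8 ± 0.783 CPM in untreated cells (SD, n = 3 each), with an interval from -0.24 to 0.06 (adjusted p = 0.384). The level of Dusp5 relative to that of Dusp6, both per kilobase of feature length, was 0.249, 0.256 and 0.291 in the lenvatinib libraries, against 0.365, 0.377 and 0.366 in the untreated libraries.

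Of the 3 nuclear phosphatases with broad substrates, 2 moved in opposite directions. Dusp4, which ERK activity induces in many cell types, had 36.5, 37.8 and 38.3 CPM in the lenvatinib libraries, against 66.0, 60.4 and 62.6 CPM in the untreated libraries. The gap between the groups was wider than the spread within either. Dusp4 was 1.68-fold lower (-0.74 ± 0.05, adjusted p = 4.02e-17) and had the smallest p of the 10 genes, rank 99 of all tested rows. Its row lies on chromosome 8 from 35274451 to 35287048. Dusp1, an immediate early gene of stress and growth factor signaling, had 50.3, 49.8 and 47.3 CPM with lenvatinib, against 43.2, 43.0 and 39.3 CPM without it. Every lenvatinib library of Dusp1 lay above every untreated one, and the change was small, 1.17-fold higher (0.23 ± 0.05, adjusted p = 0.000164).

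The row of Dusp1 spans 56539 bases of chromosome 17, from 26724564 to 26781102, although its feature length is 3687 bases. Within that span lie Gm8225 on the other strand, with 909 to 1201 counts per library, and 640 bases of Ergic1, also on the other strand, with 4350 to 6030 counts. How the counting treated strand is not stated by any source used here, so reads of Dusp1 and of these rows cannot be told apart where counted bases overlap. These overlaps are of whole spans, and whether the counted bases of the rows overlap was not examined. Gm8225 did not pass the test (0.02 ± 0.05, adjusted p = 0.82) and Ergic1 rose by 0.14 ± 0.03 (adjusted p = 0.000221); their part in the rise of Dusp1 was not tested. Dusp2, which is best known from activated lymphocytes, had 37, 28 and 27 counts in the lenvatinib libraries and 38, 35 and 62 counts in the untreated libraries. Its CPM overlapped between the groups, at 1.16 ± 0.331 with lenvatinib and 1.65 ± 0.437 without it (SD, n = 3 each), and the interval was wide, from -1.06 to -0.04 (adjusted p = 0.105). Its call changed when the first lenvatinib library was left out: the log2 fold change of Dusp2 was then -0.77 and passed (adjusted p = 0.0419). Without the third untreated library it was -0.30 and, as in the full fit, did not pass (adjusted p = 0.524).

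Among the JNK and p38 phosphatases, Dusp8 changed the most. Dusp8, whose expression is known mainly from brain and heart, had 53.4, 58.8 and 55.7 CPM in the lenvatinib libraries, against 41.7, 42.2 and 42.5 CPM in the untreated libraries. The groups did not overlap, and the untreated libraries were nearly level. Dusp8 was 1.33-fold higher (0.41 ± 0.05, adjusted p = 1.07e-09); its row lies on chromosome 7 from 141633227 to 141649580. Dusp16, a JNK phosphatase that shuttles between nucleus and cytoplasm, had 32.1, 33.0 and 29.1 CPM with lenvatinib, against 25.7, 27.2 and 29.2 CPM without it. The third lenvatinib library lay just below the third untreated one, so the groups overlapped although the test was passed (1.14-fold higher, 0.19 ± 0.06, adjusted p = 0.011). Without the second lenvatinib library or without the first untreated library Dusp16 no longer passed (adjusted p = 0.078 and 0.0869). Dusp10, a phosphatase of JNK and p38 found in nucleus and cytoplasm, averaged 31.0 ± 0.818 CPM with lenvatinib and 30.8 ± 1.29 CPM in untreated cells (SD, n = 3 each), with an interval from -0.10 to 0.12 (adjusted p = 0.955). A rise of the size of that of Dusp8 lay outside this interval. In all, the groups did not overlap in 5 of the 10 genes, against 40.1% of the tested rows.

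**Figure D3:**
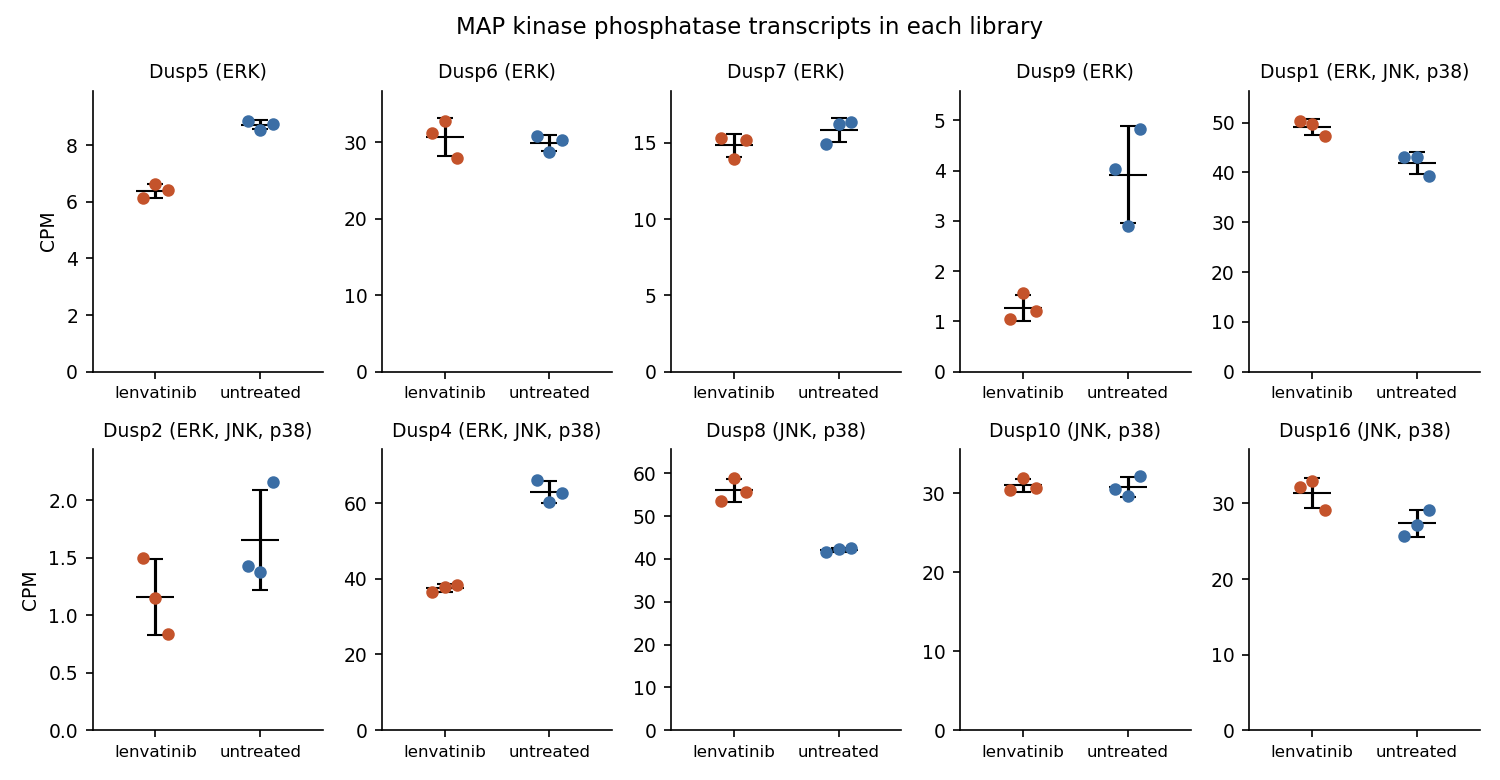
CPM of each phosphatase transcript in every library (points), with mean and SD over 3 libraries (bars); the y axes start at 0 and differ between genes. The points of Dusp1, Dusp4, Dusp5, Dusp8 and Dusp9 do not overlap between the groups, and those of Dusp16 overlap in 1 library of each group.

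Levels were compared between the genes as CPM per kilobase of the deposited feature length. In lenvatinib libraries Dusp4 (13.7 ± 0.341) and Dusp1 (13.3 ± 0.431) led with overlapping ranges, followed by Dusp8 (10.6 ± 0.514), Dusp10 (10.1 ± 0.266) and Dusp6 (9.79 ± 0.801), whose neighbouring ranges also overlapped. Dusp7 (4.42 ± 0.225) and Dusp16 (3.96 ± 0.257) came next, with overlapping ranges, then Dusp5 (2.59 ± 0.099), and last Dusp2 (0.558 ± 0.159) and Dusp9 (0.467 ± 0.0949), which overlapped. In untreated libraries Dusp4 (23.0 ± 1.05) stood above all others, Dusp1 (11.3 ± 0.589) was next, and Dusp10 (10.0 ± 0.418) and Dusp6 (9.56 ± 0.344) overlapped. Dusp8 (7.95 ± 0.0794) and Dusp7 (4.72 ± 0.233) followed, then Dusp5 (3.53 ± 0.0681) and Dusp16 (3.45 ± 0.219), which overlapped, and below them Dusp9 (1.44 ± 0.357) and Dusp2 (0.796 ± 0.21). On this scale Dusp4 and Dusp1 ranked first and second by mean in both groups, with a ratio that differed. Dusp4 was 0.977, 1.02 and 1.09 times the level of Dusp1 in the lenvatinib libraries, against 2.06, 1.89 and 2.14 times in the untreated libraries. Dusp8 ranked 3 with lenvatinib and 5 without it. These ranks depend on the deposited lengths. For Dusp1, the GENCODE M21 model begins 53656 bases upstream of the RefSeq start. In plain CPM with lenvatinib, Dusp8 (56.0 ± 2.72) and Dusp1 (49.1 ± 1.59) lay above Dusp4 (37.6 ± 0.934). In untreated libraries Dusp4 (63.0 ± 2.86 CPM) lay above both.

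Summed over the 10 genes, the level per kilobase was 69.5 ± 1.79 in lenvatinib libraries and 75.8 ± 1.62 in untreated libraries, with no overlap. The sum in plain CPM, in which long transcripts weigh more, was 259 ± 7.47 with lenvatinib and 265 ± 4.33 without it, and the libraries overlapped. The makeup of the pool differed as well. Dusp4 held 19.7 ± 0.757% of the per-kilobase sum with lenvatinib and 30.3 ± 0.888% without it. The JNK and p38 phosphatases held 35.4 ± 0.603% in lenvatinib libraries and 28.3 ± 0.821% in untreated libraries. The genes with broad substrates held 39.7 ± 0.626% with lenvatinib and 46.3 ± 1.18% without it, and the ERK phosphatases held 24.8 ± 0.484% with lenvatinib and 25.4 ± 0.475% without it. The libraries overlapped in this last share per kilobase but not in plain counts, where it was 20.1 to 20.8% with lenvatinib and 21.7 to 22.5% without it. These shares are descriptions of transcript levels and were not tested.

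**Figure D4:**
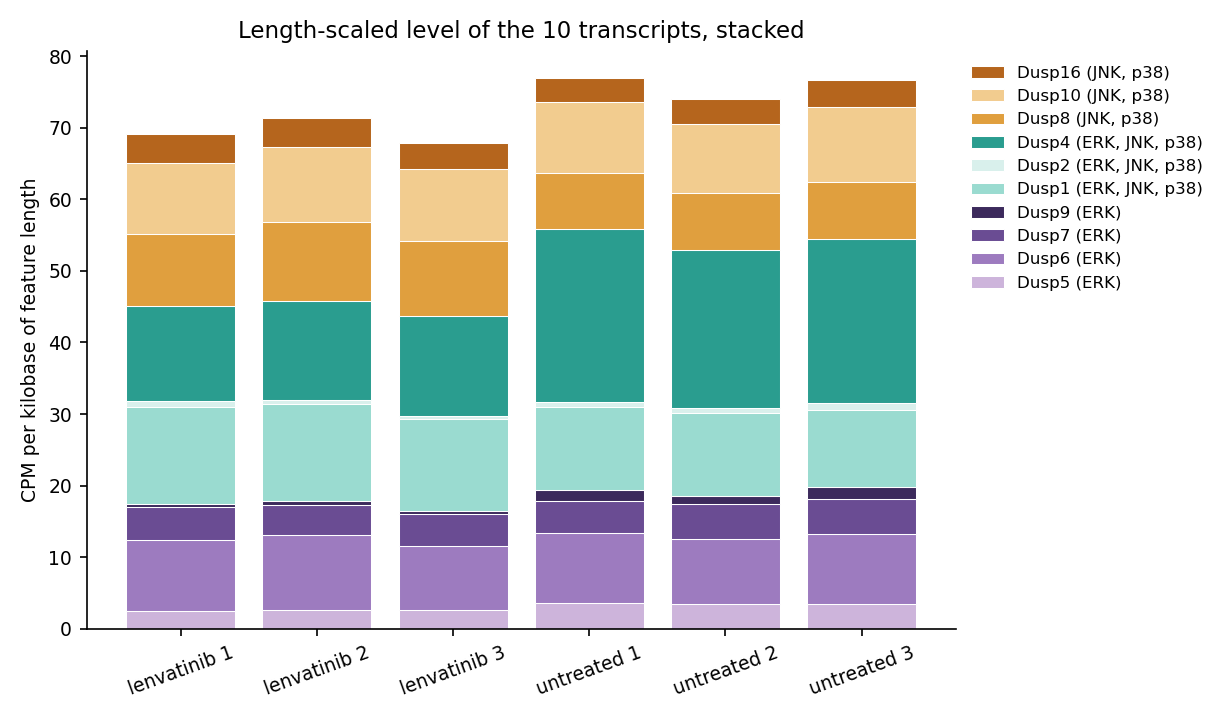
CPM per kilobase of feature length, stacked over the 10 phosphatase genes, for each library (lenvatinib left, untreated right). The Dusp4 segment is shorter in every lenvatinib library than in any untreated one, and the Dusp8 segment is taller; the column totals run from 67.9 to 71.4 with lenvatinib and from 73.9 to 76.9 without it.

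The transcripts whose pattern over the 6 libraries lay nearest to that of Dusp4, by the root mean square distance of centred log2 CPM among 10051 genes, were those of Notch3, Misp3 and Angptl4, at distances of 0.0446, 0.0498 and 0.0539. Notch3, a Notch receptor gene, averaged 46.3 ± 0.909 CPM with lenvatinib and 75.9 ± 2.14 CPM without it. For Dusp8 the nearest were Fam13c, Get1 and Pxdn, at 0.0175, 0.0211 and 0.0222. Pxdn, which encodes a peroxidase that crosslinks collagen IV, averaged 239 ± 7.02 CPM with lenvatinib and 183 ± 2.31 CPM without it. With 6 libraries in 2 groups such likeness reflects mainly the size of the change between the groups.

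The kinases on which these phosphatases act were described from lists of their cascades. In the JNK, p38 and ERK5 cascades 5 of 23 tested genes rose and 2 fell, with a median log2 fold change of 0.08. The 30.4% called lay near the 28.2% of all tested rows. DESeq2 called 4 genes of this list higher and 2 lower, and limma-voom 5 higher and 2 lower. Mapk14, which encodes p38 alpha, averaged 76.8 ± 3.25 CPM with lenvatinib and 60.8 ± 0.991 CPM without it (0.34 ± 0.04, adjusted p = 4.32e-09). Map2k6, a kinase that activates p38, was at 2.58 ± 0.224 CPM with lenvatinib and 1.28 ± 0.24 CPM without it (1.01 ± 0.21, adjusted p = 0.00017). Map3k4, a kinase upstream of p38 and JNK, rose by 0.32, Mapk8, which encodes JNK1, by 0.17 and the JNK scaffold gene Mapk8ip3 by 0.11 on the log2 scale, while the kinase genes Map3k2 and Map3k20 fell by 0.20 and 0.11. In the ERK cascade 5 of 30 tested genes rose and 8 fell, with a median of 0.01, where 13.3% of all tested rows rose and 14.9% fell. DESeq2 called 1 gene of this list higher and 6 lower, and limma-voom 4 higher and 8 lower, so the number of risers depended on the tool. Rasa1, a GTPase-activating protein that switches Ras off, averaged 128 ± 4.35 CPM with lenvatinib and 202 ± 3.98 CPM without it (-0.66 ± 0.03, adjusted p = 8.04e-21). The adaptor gene Shc1 fell by 0.33, the receptor gene Egfr by 0.33, Mapk3, which encodes ERK1, by 0.24, Nf1, whose product switches Ras off, by 0.15 and the adaptor gene Frs2 by 0.13. The members called higher in edgeR were Nras, Sos2, Ptpn11, Gab1 and Rasgrp3, with log2 fold changes of 0.08 to 0.57.

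Of other targets and feedback genes of ERK, counted without the phosphatase genes, 14 of 26 tested members fell and 3 rose, with a median of -0.24. Of all tested rows, 14.9% fell and 13.3% rose. DESeq2 called 12 genes of this list lower and limma-voom 13, each with 3 higher. Among the Sprouty and Spred genes, whose products restrain receptor signaling to ERK, Spry1, Spry4, Spred1, Spred2 and Spred3 fell. Spry1, whose feature length of 6260 bases exceeds the span of its row, averaged 62.6 ± 2.39 CPM with lenvatinib and 90.5 ± 2.31 CPM without it, and Spred1 averaged 49.5 ± 1.48 CPM with lenvatinib and 67.6 ± 2.91 CPM without it. Spry2 did not pass, at 43.0 ± 1.06 CPM with lenvatinib and 42.3 ± 1.45 CPM without it. The immediate early genes Phlda1 and Junb had log2 fold changes of -0.38 and -0.36, and Il17rd, an inhibitor of FGF receptor signaling, of -0.39. Egr2, Egr3 and Myc also fell, while Fos, Fosb, Fosl1, Fosl2, Egr1, Ier2 and Ier3 did not pass. The log2 fold change was -0.02 for Fos and -0.03 for Egr1. Of the PEA3 group of transcription factor genes, which FGF signaling induces, Etv1 and Etv4 were lower by log2 fold changes of -0.61 and -0.39, while Etv5 was at 28.4 ± 0.795 CPM with lenvatinib and 27.8 ± 0.615 CPM without it and did not pass. Jun rose by 0.45, Ccnd1 by 0.22 and Ier5 by 0.18.

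Other phosphatase genes were described from a pair of lists. Of the 16 tested genes in the atypical dual-specificity phosphatase list, whose products lack the MAP kinase docking domain, 5 rose and 1 fell. Their median was 0.05, and 37.5% of them were called, against 28.2% of all tested rows. DESeq2 and limma-voom each called 4 of them higher and 1 lower. Besides atypical phosphatases, this list held the slingshot phosphatase genes Ssh1 and Ssh2, which did not pass. Dusp18 fell from this list, with 116 ± 1.59 CPM in lenvatinib and 163 ± 3.78 CPM in untreated libraries (-0.49 ± 0.03, adjusted p = 2.1e-16). Dusp3, the most abundant riser, averaged 289 ± 6.42 CPM with lenvatinib and 258 ± 6.38 CPM without it (0.17 ± 0.03). Dusp13, Dusp14, Dusp22 and Epm2a, the gene of the glycogen phosphatase laforin, rose by 0.30, 0.28, 0.16 and 0.53. Of 8 tested phosphatase genes of other classes that act on MAP kinases, such as Ppm1a and Ppp2ca, 0 passed in edgeR, DESeq2 or limma-voom, and 1 had an unadjusted edgeR p under 0.05, Ppm1a at 142 ± 4.31 CPM with lenvatinib and 150 ± 2.71 CPM without it.

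**Figure D5:**
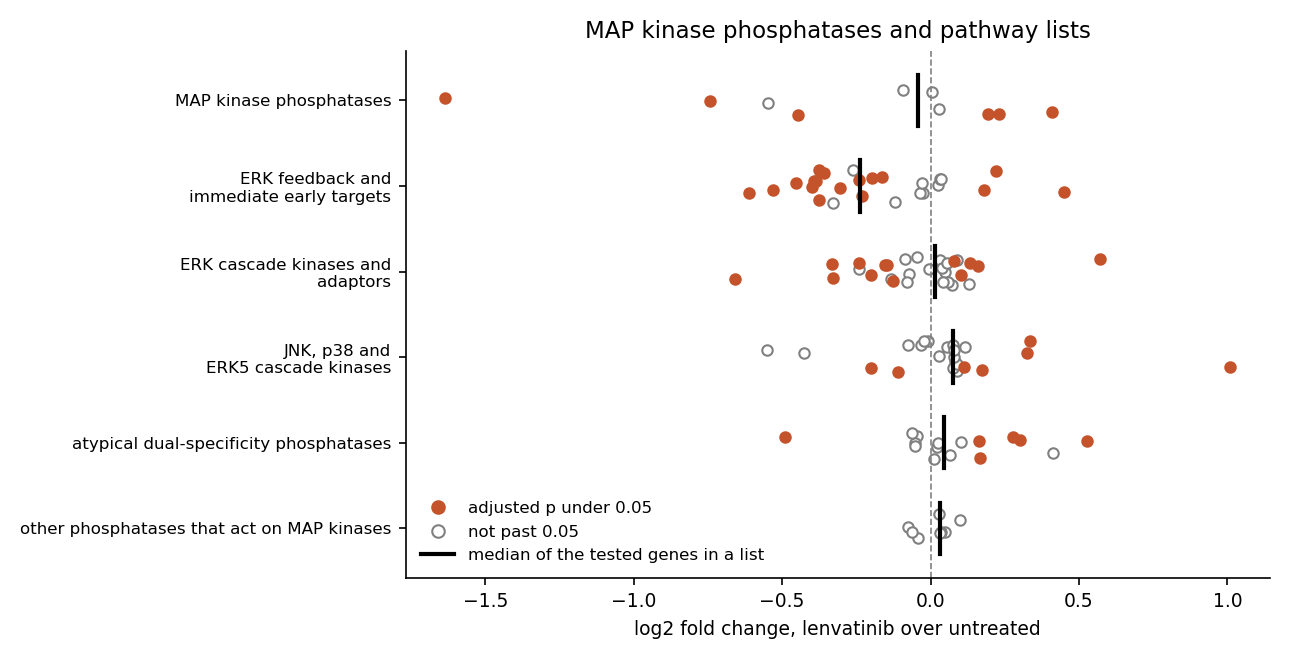
Log2 fold change (x axis, lenvatinib over untreated) of every tested gene of the phosphatase family and of 5 pathway lists; filled points have an adjusted p under 0.05 and black bars are medians. The phosphatase genes spread to both sides of 0, ERK feedback and immediate early genes lie mostly below it, and no point is filled among phosphatases of other classes.

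The libraries held 24566768 to 32406563 counts with lenvatinib and 25529288 to 28886472 without it. The first principal component, with 75.3% of the variance, separated the groups. The differentiation markers Myog, Mymk, Myh3, Ckm, Tnnt1, Tnnc1 and Des summed to 14273 to 14538 CPM with lenvatinib and 13788 to 14238 CPM without it, and 5 of the 7 rose and 2 fell. Of 6 markers of proliferating myoblasts 3 rose, Top2a, Pcna and Myf5, while Mki67, Ccnb1 and Pax7 did not pass. The sum of the 6 was 281 to 290 CPM with lenvatinib and 235 to 265 CPM without it. Of 4 tested fibroblast markers 2 rose and 1 fell. With Lum, which had too few counts for the test, the 5 listed summed to 1002 to 1100 CPM with lenvatinib. In untreated libraries they summed to 879 to 912 CPM. Of the osteoblast markers Runx2 fell and Ibsp had 0 counts throughout, with sums of 30.1 to 32.4 CPM in lenvatinib and 34.7 to 39.6 CPM in untreated libraries. Macrophage and endothelial markers summed to under 2 CPM in every library, and Adgre1 and the adipocyte marker Plin1 had 0 counts in all 6. The 4 adipocyte markers summed to 5.31 to 5.45 CPM with lenvatinib and 5.21 to 5.95 CPM without it. Among them 1 was tested, Pparg, which did not pass, at 5.35 ± 0.0312 CPM with lenvatinib and 5.46 ± 0.342 CPM without it. Beside these counts, 13.3% of all tested rows rose and 14.9% fell. The part of these markers in the changes of the phosphatase genes was not tested.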

How the data were processed

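RNA of 3 lenvatinib-treated and 3 untreated C2C12 samples was sequenced. The authors deposited whole-number read counts per gene row, not normalized, with a feature length in bases (unit other). Per the labels' protocols, reads were aligned with Hisat2 2.0.1, and the submitters' processing notes name HTSeq 0.6.1 and build mm10. Library kit, read filters and strand handling are not stated by any source used here. Of 51863 identifiers shared with GENCODE M21 (GRCm38, the build also called mm10), 2.97% have the same start and end. The deposited positions thus do not match the build named in the notes, and they are printed as deposited. The 10 rows have the same span in both.

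Counts were tested with edgeR 4.0.16 (robust quasi-likelihood fit, TMM, filterByExpr with minimum count 10 and total 15) in R 4.3.3, Benjamini-Hochberg adjusted over 14989 rows. CPM and fold changes were computed here. The SE comes from the F statistic. Intervals are 95% intervals of the fit. The coefficient of variation between replicates was 3.6%, and 3 counts equal 0.0927 to 0.123 CPM, counting error only. Replicates differed beyond sampling noise. DESeq2 1.42.0 and limma 3.58.1 were among 16 alternative settings. Members and lists were chosen with earlier results of these data known. All 10 members were named, and from each list up to 6 genes per direction with the smallest p. The 3 genes nearest in pattern to the riser and the faller of smallest p were named too. Spry4, Spred2, Spred3, Etv4, Egr2, Egr3, Myc and genes that did not pass were named after their values were seen. Promoter windows are from RefSeq (GRCm38.p6).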

Additional observations from a re-analysis of the deposited data

How the results depend on the processing

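The calls of Dusp1, Dusp4, Dusp5, Dusp8 and Dusp9 kept their direction and stayed past the threshold in every alternative in which the gene was tested: other scalings, filters and tools, the replicate number as a block, and each library left out. Dusp9 and Dusp2 were not tested under the filter of 5 CPM. Leaving out single libraries gave log2 fold changes of 0.15 to 0.25 for Dusp16, which lost its call in 2 of these 6 fits, and of -0.77 to -0.30 for Dusp2, which passed without the first lenvatinib library (adjusted p = 0.0419). For genes that did not pass, the sign turned at values near 0: Dusp6 ranged from -0.0214 to 0.0976 and was -0.0214 without the second lenvatinib library, and Dusp10 ranged from -0.0203 to 0.0402, at -0.0141 without the second lenvatinib library and -0.000994 and -0.0203 without the first and the second untreated library. The cause was not tested. In the ERK cascade list DESeq2 called 1 gene higher and 6 lower, against 5 and 8 in edgeR. With a stricter adjusted p of 0.01, 2 phosphatase genes were higher and 3 lower. In plain counts rather than per kilobase, the JNK and p38 phosphatases held 45.6% of the family's sum with lenvatinib and 37.8% without it, the genes with broad substrates 33.9% with lenvatinib and 40.2% without it, and the ERK phosphatases 20.5% with lenvatinib and 22.0% without it. The labels name no pairing of the libraries. Deviations of same-numbered libraries from their group means correlated at 0.0217, -0.0782 and -0.00417, and those of differently numbered ones at -0.0601 to 0.0633. With 3 libraries per group, such values cannot settle whether cultures were handled in pairs. With the replicate block, 3 phosphatase genes were higher and 3 lower, as without it. In that fit 1952 rows rose and 2182 fell, against 1999 and 2229. At the depth of these libraries Dusp2 and Dusp9, with 26 to 139 counts per library, carry the widest intervals of the 10 genes.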

Other observations

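Some genes of the MAP kinase pathway had too few counts for a test. Map2k7, which encodes an activating kinase of JNK, and the phosphatase gene Dusp21 had 0 counts in all 6 libraries, where 3 counts correspond to 0.0927 to 0.123 CPM. Mapk10, the gene of the JNK isoform best known from neurons, was at 0.0135 ± 0.0233 CPM with lenvatinib and at 0 CPM without it, and Mapk13, the gene of p38 delta, at 0.0409 ± 0.0709 CPM with lenvatinib and 0.0381 ± 0.0376 CPM without it (SD, n = 3 each). The haematopoietic tyrosine phosphatase gene Ptpn7 was at 0 CPM with lenvatinib and 0.0232 ± 0.0401 CPM without it. A row at or near 0 in this table was not read as an absent transcript.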
